A study of Schmidtea mediterranea with 6 samples.

Results

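Tubulin and actin transcripts were followed in regenerating planarians after knockdown of cct3A. Actin and the tubulins are the best known clients of TRiC, the ring-shaped cytosolic chaperonin, which takes up newly made polypeptides in its cavity and releases them folded. Alpha-tubulin and beta-tubulin pair in equal amounts, with the help of tubulin cofactors, and the dimers assemble into the microtubules of the spindle, of cilia and of axons. Actin builds the cell cortex and the thin filaments of muscle. Planarians carry several copies of each, and these proteins are needed wherever stem cells divide and new tissue is formed.

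The 6 transcripts were taken by identifier from the gene tables of the study, which give them the names of human homologues. They are 3 beta-tubulins named TUBB4B (dresden_comp640_c0_seq1, dresden_comp152_c0_seq1 and dresden_comp83_c0_seq1), 2 alpha-tubulins named TUBA1A (dresden_comp718_c0_seq1 and dresden_comp2143_c0_seq1) and 1 actin named ACTB (dresden_comp246_c0_seq1). All 6 were found among the 26558 transcripts listed, and all 6 reached the mean of 1 TPM (abundance per length, scaled to the library total) required for testing, as did 18062 transcripts in all. None shared its component number in the assembly with another listed transcript (0 for each of the 6). The same tables name 5 further copies, 2 TUBB4B, 2 TUBA1C and 1 ACTB, which are described beside the 6. The names could not be checked against sequence here, and no sequence is shown.

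RNA came from trunks of asexual *Schmidtea mediterranea* at 72 hours of regeneration (72hR), after removal of head and tail, with 5 trunks pooled in each library. The cct3A(RNAi) animals had been injected with double-stranded RNA against cct3A (3 libraries) and the gfp(RNAi) animals with double-stranded RNA against gfp, which planarians lack (3 libraries). The study describes both groups as starved, a state absent from the sample titles, and no fed or uninjected animals are in the comparison. The libraries are numbered replicates with no culture named, so the p-values measure the spread between pools of trunks, which may be technical.

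Values are TPM rescaled by a size factor for each library, here called normalised TPM. They are per length, so levels of different transcripts can be compared and summed, but the depth behind them is unknown. Library sums lay between 1004959 and 1048445 in cct3A(RNAi) and between 959963 and 999939 in gfp(RNAi), and so did not overlap. cct3A itself (dresden_comp435_c0_seq1) was at 13.3, 13.4 and 14.0 normalised TPM in the cct3A(RNAi) libraries, against 386, 387 and 403 in the gfp(RNAi) libraries. Of all tested transcripts 1.78% passed the test as higher in cct3A(RNAi) and 2.46% as lower (321 and 445 transcripts, limma, Benjamini-Hochberg adjusted p under 0.05). The split depends on the scaling, and after all libraries were rescaled to the same sum 0.57% were higher and 6.4% lower (103 and 1156 transcripts). Leaving out 1 library lowered both counts, most of all without gfp(RNAi) replicate 1 (9 higher and 15 lower). Cell type markers could not be checked, since none of the tables read here links such names to these identifiers. In bulk RNA of this kind fewer cells of a type and less RNA per cell cannot be told apart, and likewise more cells and more RNA per cell.

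The beta-tubulins and actin rose in cct3A(RNAi) trunks, whereas the alpha-tubulins together did not move beyond their spread. Of the 6 transcripts 5 passed the test as higher and 0 as lower, against the 1.78% and 2.46% of all tested transcripts. Only 1 call, that of actin, passed without gfp(RNAi) replicate 1 or without gfp(RNAi) replicate 2, 2 calls passed without cct3A(RNAi) replicate 1, and 4 passed when any other library was left out. The same 5 transcripts had groups that did not overlap, with every cct3A(RNAi) library above every gfp(RNAi) library, which held for 15.8% of tested transcripts. The 6 are abundant, and among the 1329 tested transcripts whose mean reached 100 TPM 7.37% were called higher, 1.88% were called lower and 39.4% had groups that did not overlap with cct3A(RNAi) above. The median log2 change of the 6 was 0.36, against 0.0034 for all tested transcripts and 0.069 for those of at least 100 TPM. The study had itself listed 5 of the 6 as raised folding genes in these libraries, so their direction is not independent evidence. All 5 named beta-tubulins and both named actins are in that list of raised genes. Of these, 0 are in the study's list from its separate starvation time course of sorted cells. All 4 named alpha-tubulins are in the list from the time course, and only 1 is in the list of raised genes. The contrast between the families is thus not independent of how the copies were listed.

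**Figure D1:**
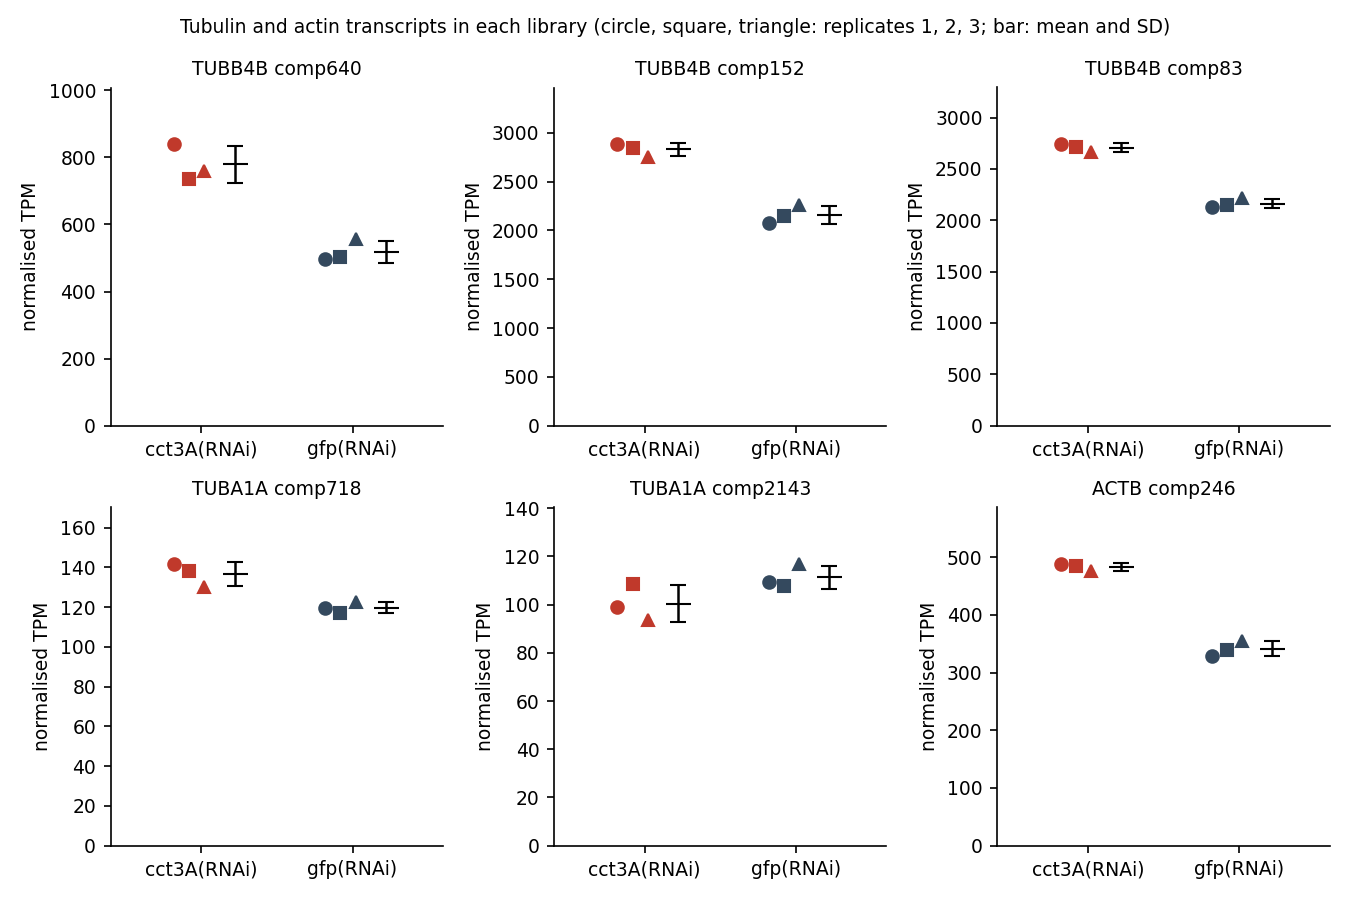
Normalised TPM (vertical axes, from 0) of the 6 transcripts in each cct3A(RNAi) library (left) and gfp(RNAi) library (right), with 1 marker per library (circle, square and triangle for replicates 1, 2 and 3) and a bar for the mean and SD of 3 libraries. The 2 groups separate in 5 panels, and in the panel of TUBA1A comp2143 the cct3A(RNAi) library at 108.6 lies inside the gfp(RNAi) range of 107.8 to 116.9.

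The least abundant of the 3 beta-tubulins changed most. TUBB4B comp640 was at 840.2, 737 and 760.5 normalised TPM in cct3A(RNAi), against 497, 502 and 556 in gfp(RNAi). The lowest cct3A(RNAi) library thus lay 181 above the highest gfp(RNAi) library, a gap wider than the range within either group (104 in cct3A(RNAi) and 59.3 in gfp(RNAi)). Its mean was 779 ± 54.2 in cct3A(RNAi) and 518 ± 32.8 in gfp(RNAi) (SD, n = 3 each), 50.3% higher, and it rose by 0.59 on the log2 scale (SE 0.064, 95% interval 0.44 to 0.74, limma adjusted p = 0.0114). Only 0.764% of tested transcripts had a larger log2 change. The call was lost without gfp(RNAi) replicate 1 (adjusted p = 0.0682), without gfp(RNAi) replicate 2 (0.0644) and with no variance trend (0.0536).

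The other 2 copies are among the most abundant transcripts of the trunks, ranking 35 and 39 by mean level. TUBB4B comp152 was at 2886, 2848 and 2754 normalised TPM in cct3A(RNAi), against 2073, 2142 and 2259.9 in gfp(RNAi). The groups were 495 apart, more than the 131 and 187 by which libraries of cct3A(RNAi) and gfp(RNAi) differed among themselves. The mean of 2829 ± 67.6 in cct3A(RNAi) was 31.1% above that of 2159 ± 94.4 in gfp(RNAi) (SD, n = 3 each), and comp152 rose by 0.39 on the log2 scale (SE 0.049, 95% interval 0.28 to 0.51, limma adjusted p = 0.0174). TUBB4B comp83 was at 2745, 2715 and 2662 normalised TPM in cct3A(RNAi), against 2132, 2146 and 2214 in gfp(RNAi). Its mean was 25.1% higher in cct3A(RNAi) (2707 ± 42.0 in cct3A(RNAi) and 2164 ± 43.7 in gfp(RNAi), SD, n = 3 each). It rose by 0.32 (SE 0.041, 95% interval 0.23 to 0.42, limma adjusted p = 0.0177). Both calls were lost with no variance trend (adjusted p = 0.0536 each) and in 3 of the fits that left out 1 library. Without cct3A(RNAi) replicate 1 the adjusted p was 0.0594 for comp152 and 0.0621 for comp83, without gfp(RNAi) replicate 1 it was 0.0880 and 0.0905, and without gfp(RNAi) replicate 2 it was 0.0820 and 0.0849. Quantile normalisation, which gives every library the same distribution, lowered the log2 change of comp83 to 0.15 (adjusted p = 0.0763).

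In order of mean level over the 6 libraries comp152 came first, followed by comp83, comp640, actin comp246 and the TUBA1A copies comp718 and comp2143. comp152 and comp83 differed little. In cct3A(RNAi) the lowest comp152 library (2754) was just above the highest comp83 library (2745). In gfp(RNAi) the ranges of the 2 copies overlapped, and the mean of comp83 (2164) was slightly above that of comp152 (2159). The TUBA1A copies were close as well, since in gfp(RNAi) the lowest comp718 value (117.0) and the highest comp2143 value (116.9) almost met. All other neighbours in this order were separated in both groups by more than their spread.

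The summed level of the 3 beta-tubulins was 6471, 6299 and 6177 normalised TPM in cct3A(RNAi), against 4702, 4791 and 5029.6 in gfp(RNAi). The groups lay 1147 apart, while libraries within cct3A(RNAi) and within gfp(RNAi) spanned 294 and 328. The mean sum was 6316 ± 148 in cct3A(RNAi) and 4841 ± 169.5 in gfp(RNAi) (SD, n = 3 each), 30.5% higher, a log2 difference of 0.38 (SE 0.035). No p-value is given for sums, ratios and shares, since the transcripts that enter them were chosen with results known, and an exact permutation test of 3 against 3 libraries could not go below p = 0.10. As a share of all normalised TPM in a library, a measure free of the size factors, the 3 transcripts made up 0.630%, 0.627% and 0.589% in cct3A(RNAi) and 0.488%, 0.499% and 0.503% in gfp(RNAi). This share was 23.9% larger in cct3A(RNAi), with no overlap between the groups.

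The 2 alpha-tubulins named TUBA1A moved in opposite directions by their means, and only the first passed the test. TUBA1A comp718 was at 141.8, 138.1 and 130.2 normalised TPM in cct3A(RNAi), against 119.6, 117.0 and 122.5 in gfp(RNAi). The groups did not overlap, but the gap of 7.71 between them was smaller than the range of 11.6 within cct3A(RNAi). The mean was 14.2% higher in cct3A(RNAi) (136.7 ± 5.92 against 119.7 ± 2.75, SD, n = 3 each), and comp718 rose by 0.19 on the log2 scale (SE 0.040, 95% interval 0.097 to 0.28, limma adjusted p = 0.0466). This call was the least stable of the 5. It was lost whichever of the 6 libraries was left out (adjusted p between 0.0578 and 0.147), after rescaling to the same sum (log2 change 0.12, adjusted p = 0.153), after quantile normalisation (0.0941), with no filter on low values (0.0633), with no variance trend (0.113) and with the replicate number as a block (0.0722).

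TUBA1A comp2143 was at 98.9, 108.6 and 93.6 normalised TPM in cct3A(RNAi), against 109.3, 107.8 and 116.9 in gfp(RNAi). The groups overlapped by cct3A(RNAi) replicate 2, which was above gfp(RNAi) replicate 2. The mean was 100.4 ± 7.61 in cct3A(RNAi) and 111.3 ± 4.89 in gfp(RNAi) (SD, n = 3 each). The log2 change of -0.15 (SE 0.059, 95% interval -0.29 to -0.013) had an unadjusted p of 0.0355 in the limma fit and did not pass after adjustment (adjusted p = 0.163). It stayed negative in every alternative tried and passed in none.

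Summed over both copies, alpha-tubulin was at 240.7, 246.7 and 223.8 normalised TPM in cct3A(RNAi), against 228.9, 224.8 and 239.4 in gfp(RNAi). The lowest of all 6 libraries was in cct3A(RNAi) and so was the highest. The mean of 237 ± 11.9 in cct3A(RNAi) and that of 231 ± 7.54 in gfp(RNAi) (SD, n = 3 each) differed by 2.61%, less than the spread between libraries, and the log2 difference of 0.036 (SE 0.050) turned to -0.039 after rescaling to the same sum and to -0.0019 after quantile normalisation.

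The ratio of summed beta to summed alpha, taken within each library and so free of any scaling by a single factor, was 26.9, 25.5 and 27.6 in cct3A(RNAi), against 20.5, 21.3 and 21.01 in gfp(RNAi). Every cct3A(RNAi) library exceeded every gfp(RNAi) library, by at least 4.22, with ranges of 2.06 and 0.772 within cct3A(RNAi) and gfp(RNAi). The mean ratio was 26.7 ± 1.048 in cct3A(RNAi) and 20.95 ± 0.389 in gfp(RNAi) (SD, n = 3 each), a log2 difference of 0.35 (SE 0.036) that lay between 0.32 and 0.38 when any 1 library was left out. These are ratios of the described copies only. The study had listed all 3 beta-tubulins, but only 1 of the 2 alpha-tubulins, as raised in these libraries, so the shift is not independent evidence. The largest named alpha-tubulin, a TUBA1C, is not in the denominator, so the values do not give the balance of all alpha- and beta-tubulin RNA.

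**Figure D2:**
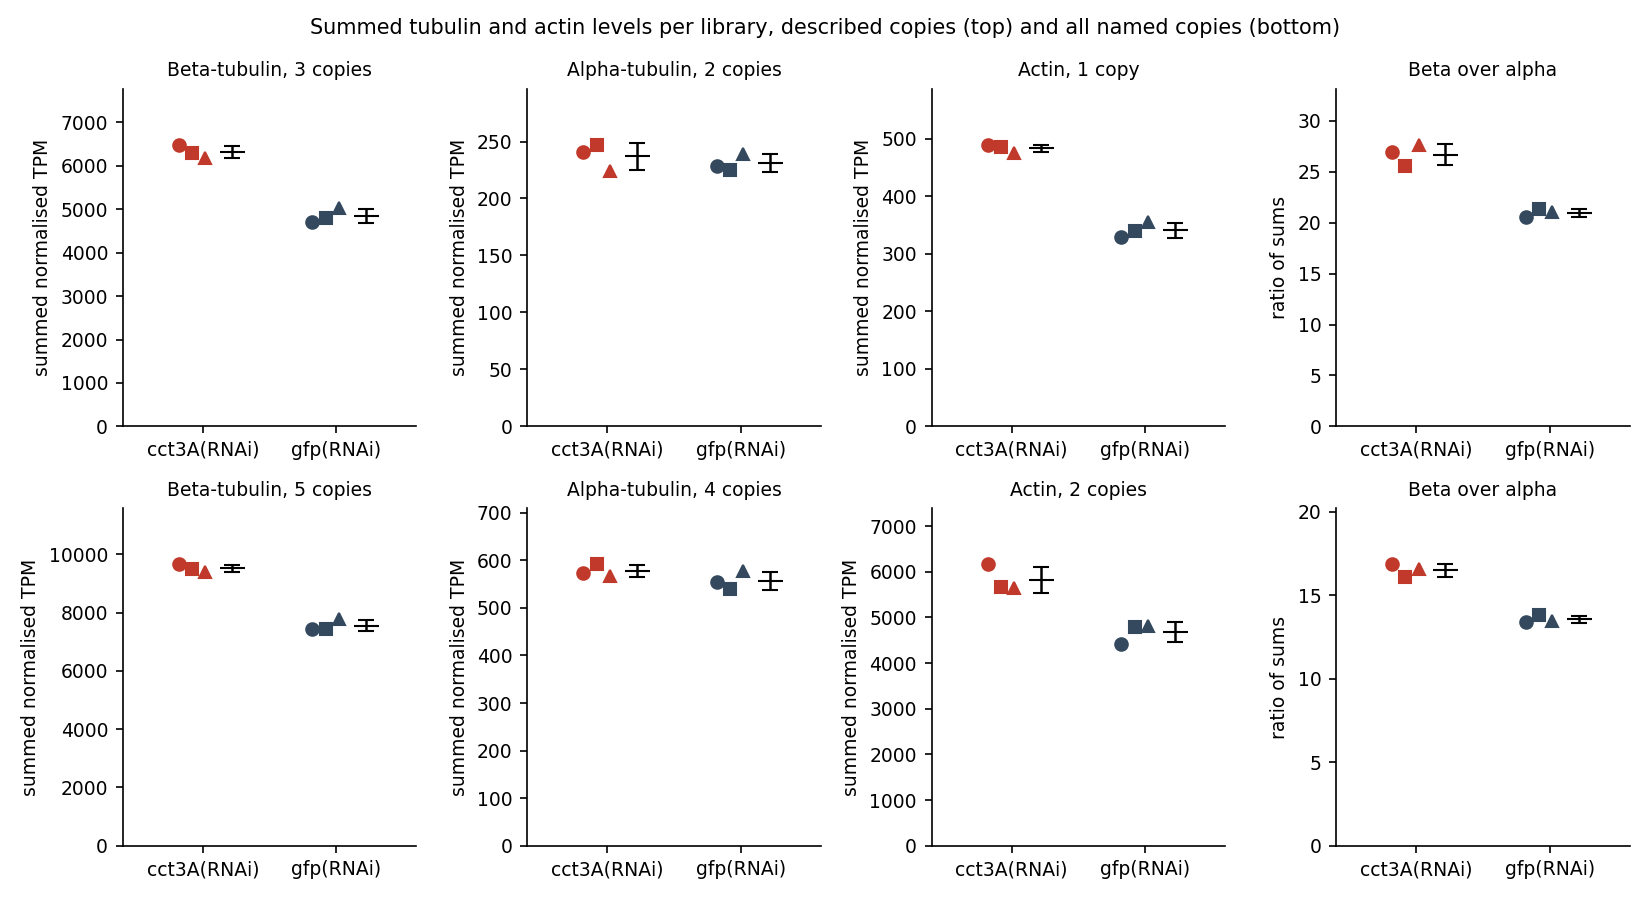
Summed normalised TPM of beta-tubulin, alpha-tubulin and actin and the ratio of summed beta to summed alpha (vertical axes, from 0) in each cct3A(RNAi) library (left) and gfp(RNAi) library (right), for the 6 transcripts (top) and for all 11 named copies (bottom), with a bar for the mean and SD of 3 libraries. Alpha-tubulin overlaps between the groups in both rows, and the other quantities do not.

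The actin transcript had the smallest p of the 6. ACTB comp246 was at 489, 485 and 476 normalised TPM in cct3A(RNAi), against 329, 339 and 355 in gfp(RNAi). The cct3A(RNAi) libraries fell within 13.0 of each other and lay 120.3 above the highest gfp(RNAi) library. The mean was 41.6% higher (483 ± 6.70 in cct3A(RNAi) and 341 ± 13.1 in gfp(RNAi), SD, n = 3 each), and comp246 rose by 0.50 on the log2 scale (SE 0.037, 95% interval 0.41 to 0.59, limma adjusted p = 0.00378). Of the 6 transcripts it alone passed in all 16 alternatives, with adjusted p between 0.00768 and 0.0309 when 1 library was left out. Relative to actin comp246, the summed beta-tubulins were lower in cct3A(RNAi), with ratios of 13.2, 13.0 and 13.0 in cct3A(RNAi) and 14.3, 14.1 and 14.2 in gfp(RNAi), which did not overlap, and the mean ratio decreased by 7.87%.

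The copies did not rise in proportion. TUBB4B comp640 contributed 13.0%, 11.7% and 12.3% of the summed beta level in cct3A(RNAi), against 10.6%, 10.5% and 11.1% in gfp(RNAi), so its share was larger in every cct3A(RNAi) library. TUBB4B comp83 contributed 42.4%, 43.1% and 43.1% in cct3A(RNAi), against 45.3%, 44.8% and 44.0% in gfp(RNAi), a share smaller in every cct3A(RNAi) library. The share of comp152 overlapped between the groups, at 44.8% ± 0.352 in cct3A(RNAi) and 44.6% ± 0.437 in gfp(RNAi) (SD, n = 3 each). The shares of comp152 and comp83 depend on which copies are summed. Over all 5 named beta-tubulins the share of comp83 overlapped between the groups, at 28.4% ± 0.112 in cct3A(RNAi) and 28.6% ± 0.190 in gfp(RNAi), while that of comp152 did not, at 29.3% to 29.9% in cct3A(RNAi) and 27.9% to 29.04% in gfp(RNAi). The ratio of comp640 to comp83 was 0.306, 0.271 and 0.286 in cct3A(RNAi), against 0.233, 0.234 and 0.251 in gfp(RNAi).

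Within alpha-tubulin the balance of the 2 copies shifted although their sum did not. TUBA1A comp718 made up 58.9%, 56.0% and 58.2% of the pair in cct3A(RNAi), against 52.3%, 52.1% and 51.2% in gfp(RNAi). The groups were 3.73 percentage points apart and did not overlap, and the mean share was 5.87 percentage points larger in cct3A(RNAi) (57.7% ± 1.53 against 51.8% ± 0.575, SD, n = 3 each). Over all 4 named alpha-tubulins the difference was 2.19 percentage points, and the groups still did not overlap (23.7% ± 0.946 in cct3A(RNAi) and 21.5% ± 0.266 in gfp(RNAi), SD, n = 3 each). The ratio of comp718 to comp2143 was 1.43, 1.27 and 1.39 in cct3A(RNAi), against 1.09, 1.09 and 1.048 in gfp(RNAi). Copies of 1 family may share reads, and the program that assigned the short single-end reads divides shared reads by estimate, so the level of a single copy is less certain than that of the sum.

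**Figure D3:**
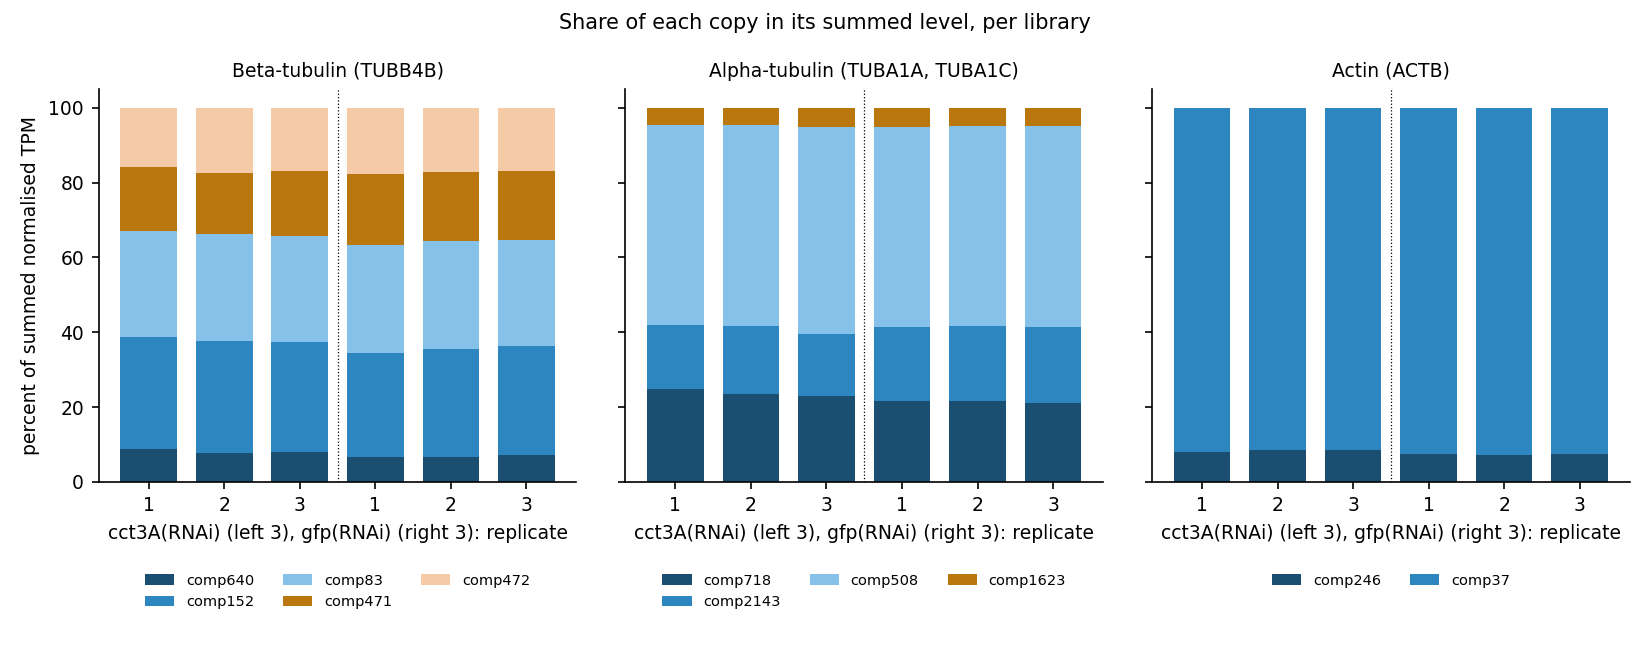
Percent of the summed normalised TPM of beta-tubulin, alpha-tubulin and actin (vertical axis) that each named copy contributes, with 1 stacked bar per library, the 3 cct3A(RNAi) libraries left of the dotted line and the 3 gfp(RNAi) libraries right of it. The lowest segments, comp640, comp718 and comp246, are each larger in all cct3A(RNAi) libraries than in any gfp(RNAi) library.

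The 5 further named copies were all higher in cct3A(RNAi) by their means, and 2 of them passed the test. Of all tested transcripts 1.78% were called higher. Among those of at least 100 TPM it was 7.37%, and their median log2 change was 0.069. The study had itself listed 3 of the 5 as raised in these libraries, so their direction is not independent evidence. ACTB comp37, the main actin transcript and 19th of all transcripts by level, was at 5671, 5192 and 5169 normalised TPM in cct3A(RNAi), against 4093, 4457 and 4463 in gfp(RNAi). It rose by 0.30 on the log2 scale (SE 0.063, limma adjusted p = 0.0466), a call lost whichever library was left out (0.0679 to 0.142), with no filter (0.0911), with quantile normalisation (log2 change 0.11, adjusted p = 0.161), with no variance trend (0.0876) and with the replicate block (0.0658). The share of comp246 in the 2 actins was 7.93%, 8.54% and 8.43% in cct3A(RNAi), against 7.44%, 7.07% and 7.37% in gfp(RNAi).

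Of the 2 further beta-tubulins, TUBB4B comp472 was at 1522, 1663 and 1600.0 normalised TPM in cct3A(RNAi), against 1308, 1284 and 1325 in gfp(RNAi), and rose by 0.29 (SE 0.045, limma adjusted p = 0.0283). Its call was lost whichever library was left out (0.0502 to 0.112) and with no variance trend (0.0745). TUBB4B comp471 was at 1659, 1551 and 1624 normalised TPM in cct3A(RNAi), against 1425, 1371 and 1428 in gfp(RNAi). Its groups did not overlap, and its log2 change of 0.19 just missed the threshold (limma adjusted p = 0.0511), passing with a filter at 5 TPM (0.0326), with robust estimation (0.0428) and with the replicate block (0.0491).

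The 2 alpha-tubulins named TUBA1C overlapped between the groups. TUBA1C comp508, the most abundant named alpha-tubulin, was at 305, 317 and 314 normalised TPM in cct3A(RNAi), against 297, 288 and 311 in gfp(RNAi), with a log2 change of 0.065 (95% interval -0.023 to 0.15, limma adjusted p = 0.319). TUBA1C comp1623 had a mean of 27.9 ± 1.29 in cct3A(RNAi) and 27.5 ± 1.15 in gfp(RNAi) (SD, n = 3 each), with a log2 change of 0.023 (95% interval -0.090 to 0.14, limma adjusted p = 0.805). After rescaling to the same sum both were negative, at -0.011 for comp508 and -0.051 for comp1623. Leaving out cct3A(RNAi) replicate 3 or gfp(RNAi) replicate 2 also made comp1623 negative (-0.014 and -0.012).

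With all 11 named copies, 7 passed as higher and 0 as lower, 4 of the 5 beta-tubulins, both actins and 1 of the 4 alpha-tubulins, where 1.78% of all tested transcripts and 7.37% of those of at least 100 TPM were called higher. Of these 7 calls, 3 (TUBA1A comp718, TUBB4B comp472 and ACTB comp37) were lost whichever library was left out. Of the 11, 8 are in the study's table of folding genes raised in these libraries. Summed over all 5 copies, beta-tubulin was at 9652, 9513 and 9401 normalised TPM in cct3A(RNAi), against 7436, 7446 and 7783 in gfp(RNAi), 26.0% higher with no overlap. The 4 alpha-tubulins together were at 573, 591 and 567 in cct3A(RNAi), against 554, 539 and 578 in gfp(RNAi), and overlapped. The ratio of the 2 sums was 16.9, 16.1 and 16.6 in cct3A(RNAi), against 13.4, 13.8 and 13.5 in gfp(RNAi), again without overlap (log2 difference 0.28, SE 0.023). All 5 copies in its numerator, but only 1 of the 4 in its denominator, had been listed by the study as raised in these libraries. The shift is therefore not independent evidence, and the named copies need not cover all alpha- and beta-tubulin RNA. The 2 actins together were 24.5% higher (5827 ± 289 in cct3A(RNAi) and 4679 ± 222 in gfp(RNAi), SD, n = 3 each), and the ratio of all beta-tubulin to all actin overlapped between the groups (1.64 ± 0.0602 in cct3A(RNAi) and 1.62 ± 0.0643 in gfp(RNAi), SD, n = 3 each).

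**Figure D4:**
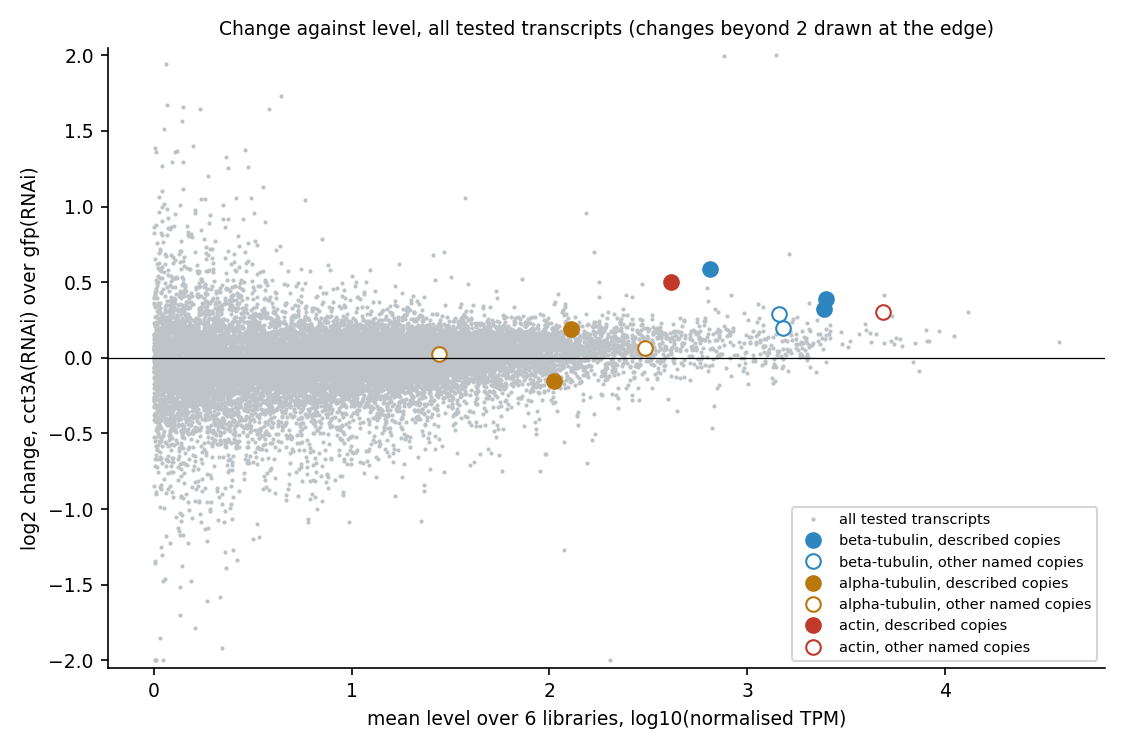
Log2 change of cct3A(RNAi) over gfp(RNAi) (vertical axis, changes beyond 2 drawn at the edge) against log10 of the mean normalised TPM of 6 libraries (horizontal axis) for the 18062 tested transcripts (grey), with the 6 tubulin and actin transcripts filled and the 5 further copies open. The beta-tubulins and actins lie at 0.19 or above among abundant transcripts, and the alpha-tubulins between -0.15 and 0.19 at lower levels.

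The cofactor TBCA and the TRiC subunits were set beside their clients. TBCA comp231, which encodes the cofactor that receives beta-tubulin released by TRiC in mammals, was at 475, 489.5 and 489 normalised TPM in cct3A(RNAi), against 424, 439.6 and 448 in gfp(RNAi). The groups did not overlap, and the log2 change of 0.15 did not pass the test (SE 0.034, limma adjusted p = 0.0562) except with a filter at 5 TPM (0.0412). Of the 7 TRiC subunits other than cct3A, 4 passed as higher (cct2, cct5, cct6 and cct8A) and 0 as lower, with log2 changes of the 7 between 0.064 and 0.26 and a median of 0.16, where 1.78% of all tested transcripts and 7.37% of those of at least 100 TPM were called higher. All 7 had groups that did not overlap, which held for 15.8% of all tested transcripts and 39.4% of those of at least 100 TPM. The study had itself listed 6 of the 7 as raised in these libraries, so their direction is not independent evidence. After rescaling to the same sum 3 of the 4 calls were lost, with adjusted p = 0.0733 for cct8A, 0.0816 for cct2 and 0.127 for cct5, and cct4B, the smallest change, turned to -0.011. The same 3 calls were lost with quantile normalisation (0.0713 to 0.0919) and with no filter (0.0517 to 0.0540), and all 4 with no variance trend (0.0744 to 0.0964). The calls of cct5 and cct8A passed in 0 of the 6 fits that left out 1 library (adjusted p up to 0.130 and 0.132), that of cct2 in 1 (up to 0.132) and that of cct6 in 3 (up to 0.0905).

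**Figure D5:**
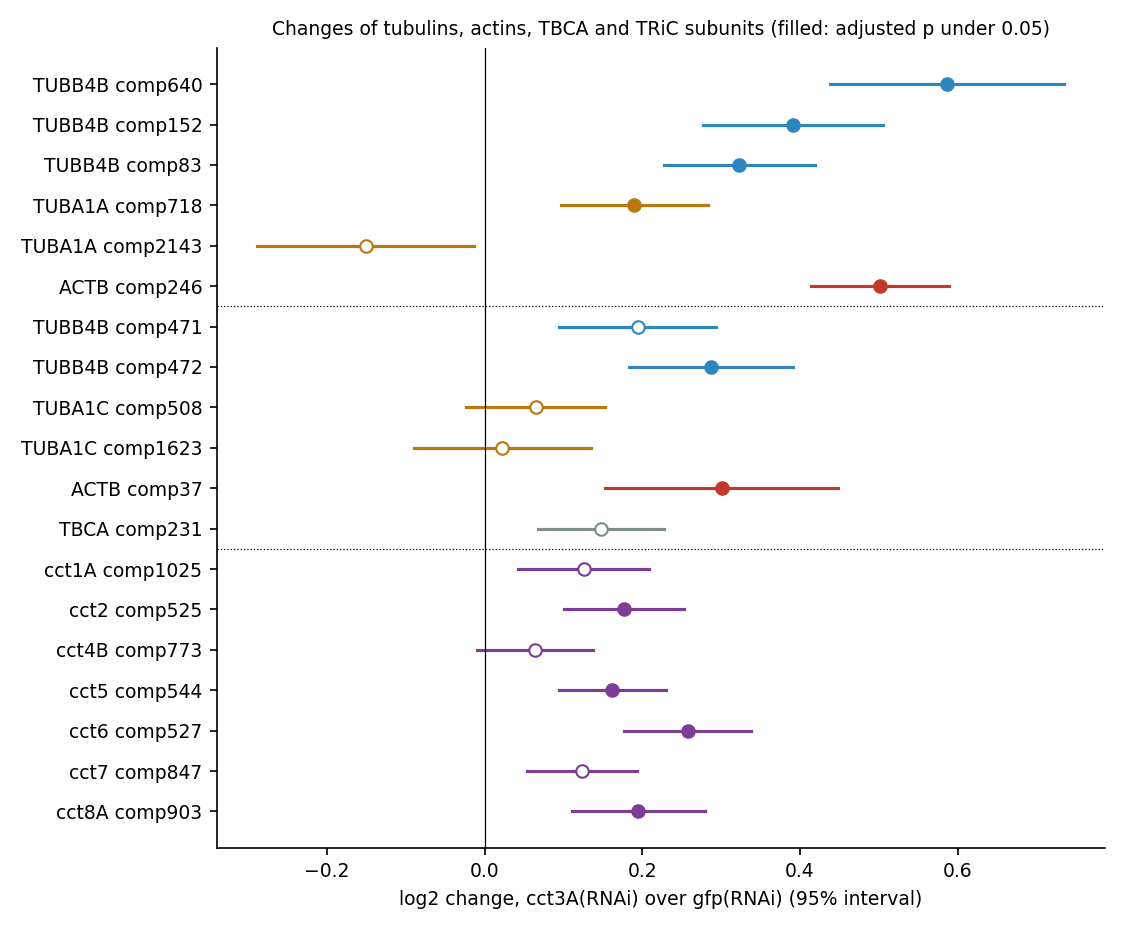
Log2 change of cct3A(RNAi) over gfp(RNAi) with its 95% interval (horizontal axis) for the 6 tubulin and actin transcripts (top block), the 5 further copies and TBCA (middle block) and the 7 TRiC subunits other than cct3A (bottom block), filled where the adjusted p is under 0.05. By point estimate the beta-tubulins comp640 and comp152 and actin comp246 lie at 0.39 or above, beyond every TRiC subunit shown, the highest being cct6 at 0.26. TUBB4B comp83 and comp472 and ACTB comp37 also lie above cct6. The intervals of comp152 (0.28 to 0.51) and cct6 (0.18 to 0.34) overlap.

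Among 67 other transcripts named in the gene tables of the study, those with the pattern most like that of the summed beta-tubulins over the 6 libraries were HSP90AA1 comp678, a cytosolic HSP90 chaperone, HSPA8 comp320, a cytosolic HSP70 chaperone, and ACTB comp37. The likeness was measured as the root mean square difference of log2 values, each centred on its own mean, which was 0.038, 0.045 and 0.057. Among all tested transcripts outside the described copies, 6, 13 and 28 respectively had a smaller difference. HSP90AA1 comp678 was at 289, 269 and 279 normalised TPM in cct3A(RNAi), against 208, 208 and 209.9 in gfp(RNAi). For ACTB comp246 the nearest of the 67 were HSPA8 comp320 (0.038), HSPA8 comp1332 (0.051) and HSP90AA1 comp678 (0.058). Here 1, 4 and 8 tested transcripts respectively had a smaller difference. HSPA8 comp320 was at 761, 703 and 718 normalised TPM in cct3A(RNAi), against 509, 521 and 558 in gfp(RNAi). Most of these 67 names come from tables of folding genes raised in these libraries or picked from the study's starvation time course of sorted cells. The candidates were therefore not a neutral set.

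The same libraries stood highest within their group for several copies. gfp(RNAi) replicate 3 held the highest gfp(RNAi) value of each of the 6 transcripts, and cct3A(RNAi) replicate 1 held the highest cct3A(RNAi) value of 5 of them, the exception being comp2143, which was highest in replicate 2. gfp(RNAi) replicate 3 also had the largest library sum of its group (999939 normalised TPM, against 963203 and 959963). In cct3A(RNAi) the largest sum was that of replicate 3 (1048445), not replicate 1 (1026504). Whether the order of libraries depends on the scaling was not tested. The spread was small all the same. The highest library of a group exceeded the lowest by a factor of 1.03 to 1.16, the extremes being ACTB comp246 and TUBA1A comp2143, both in cct3A(RNAi).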

How the data were processed

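The authors extracted reads that map to the Dresden planarian transcriptome, pseudo-aligned them with kallisto (0.43.0 in the processing notes of the submitters) and normalised the estimates with sleuth. The deposited signal is TPM rescaled by a size factor per library, unfiltered, and keeps no read depth, so no count model or counting interval was used and precision was judged from the spread of 3 libraries in each group. The table held 0 unassigned columns and 0 identical pairs of libraries. Groups were taken from sample titles. log2(value + 0.5) was tested for the 18062 transcripts whose mean over the 6 libraries reached 1 TPM, using limma (version 3.58.1, R 4.3.3, eBayes with a trend, two-sided, Benjamini-Hochberg threshold 0.05), checked on simulated data. Fold changes on this scale understate those of low transcripts. Sums, ratios and shares were computed per library with Python 3.11.15 and have no test. The 6 transcripts, the lists and the named genes (all tubulin, actin and TRiC transcripts in the study's tables, TBCA, and the 3 nearest patterns) were chosen with earlier results of these data known. Alternatives were other pseudocounts (0.1 and 1), filters, scalings, variance estimates, a replicate block, all named copies in the sums, and leaving out each library. The test values of the study were not used, but its gene lists, 1 of them of genes raised in these libraries, supplied the names. No genome was used.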

Additional observations from a re-analysis of the deposited data

How the results depend on the processing

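Direction held for the 5 transcripts called higher and for TUBA1A comp2143 in all 16 alternatives to the test. The 5 calls became 3 with quantile normalisation and 1 (actin comp246) without a variance trend, and 1 to 4 when 1 library was left out. The number of tested transcripts called higher and lower (321 and 445) was 142 and 172 with no filter, 614 and 670 with a filter at 5 TPM, 103 and 1156 with libraries rescaled to the same sum, 9 and 24 without a trend, and 9 to 128 and 15 to 361 with 1 library left out. The log2 difference of summed beta-tubulin (0.38) was 0.33 with all named copies, 0.31 at the same sum and 0.23 with quantile normalisation, and 0.36 to 0.41 with 1 library left out. That of summed alpha-tubulin (0.036) turned to -0.039 at the same sum and -0.0019 with quantile normalisation. That of actin (0.50) was 0.32 with both copies, 0.43 at the same sum and 0.41 with quantile normalisation, and that of the beta to alpha ratio (0.35) was 0.28 with all named copies and 0.23 with quantile normalisation. Small values also turned, TUBA1C comp508 (-0.011) and comp1623 (-0.051) and cct4B (-0.011) at the same sum, comp1623 without cct3A(RNAi) replicate 3 (-0.014) or gfp(RNAi) replicate 2 (-0.012), where leaving out 1 library gave up to 0.045, and the difference in the share of comp152 without gfp(RNAi) replicate 1 (-0.030 percentage points, against up to 0.390 with other libraries left out). With all named copies the difference in share was 1.15 percentage points in place of 0.216 for comp152, whose groups then no longer overlapped, -0.21 in place of -1.84 for comp83, whose groups then overlapped, and 2.19 in place of 5.87 for comp718. For these changes the cause was not tested. Libraries with the same replicate number deviated together weakly (correlations 0.048, 0.10 and 0.047 over transcripts). Pairs of unlike number had correlations between -0.058 and 0.0082, so each library correlated best with its own number. With the number as a block, 4 of the 6 transcripts passed, 218 transcripts were higher and 442 lower, and the sums and the ratio kept their differences (0.38 for beta, 0.036 for alpha, 0.50 for actin and 0.35 for the ratio). The depth of each library is unknown. With 3 libraries in a group every call but that of actin comp246 among the 5 was lost in at least 1 fit that left out 1 library.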
